A study of Mus musculus with 8 samples.

Results

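The glucocorticoid receptor and 9 genes known as its direct targets were described in mouse whole cornea: Nr3c1, which encodes the receptor, and Tsc22d3, Fkbp5, Per1, Sgk1, Klf9, Zbtb16, Errfi1, Ddit4 and Nfkbia. They were chosen by gene symbol, and all 10 were found, each as 1 entry, among the 24918 entries of the deposited expression table. All 10 also passed the filter on low values (a mean of at least 5 on the log2 scale), which left 13269 entries for testing. Their Entrez IDs in the table are 14815 (Nr3c1), 14605 (Tsc22d3), 14229 (Fkbp5), 18626 (Per1), 20393 (Sgk1), 16601 (Klf9), 235320 (Zbtb16), 74155 (Errfi1), 74747 (Ddit4) and 18035 (Nfkbia). The corneaGRKO mice were homozygous for a floxed receptor allele and carried 1 copy of a Cre transgene driven by the P0 promoter of Pax6 (GRloxP/loxP-PAX6Cre/+). The GRflox mice were littermates with the same floxed alleles and no Cre (GRloxP/loxP-PAX6+/+). All mice were males aged 3 months on a C57BL/6J/FVB background. Each group had 4 RNA-seq libraries, with replicate numbers 1, 3, 4 and 5, made from pools of 4 to 6 corneas. Effects of Cre itself and of receptor loss cannot be told apart, because no group carried Cre without the floxed alleles. Whole cornea holds epithelium, stroma and endothelium, so a gene deleted in the epithelium can still be read from the other layers.

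The glucocorticoid receptor is a transcription factor that waits in the cytoplasm in a complex with HSP90 chaperones. When cortisol or corticosterone binds, it enters the nucleus, where it pairs on inverted repeats in DNA called glucocorticoid response elements and switches genes on. It also restrains inflammatory genes driven by NF-kappaB and AP-1. In the eye, glucocorticoids are best known as anti-inflammatory drugs and for raising intraocular pressure. Several of its direct targets carry out its effects: Tsc22d3 and Nfkbia restrain inflammatory signalling, Fkbp5 feeds back on the receptor, Per1 belongs to the circadian clock, Klf9 and Zbtb16 are transcription factors, and Sgk1, Errfi1 and Ddit4 act on ion transport, growth factor and nutrient signalling.

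Promoter sequences are shown first, because the members differ in whether a response element lies close to a start site. RefSeq windows of 300 bases on GRCm38.p6, from 250 bases before a transcription start to 50 after it, were at hand for 8 of the 10 members, 17 windows in all. None was used for Nr3c1 or Zbtb16. Both strands were searched for the full response element, AGAACA and TGTTCT separated by any 3 bases, and for a relaxed form, GNACA and TGTNC separated by any 3 bases. The single arm TGTTCT, the E-box CACGTG bound by clock factors, and the kappaB site, GGGNN followed by TTTCC, were searched likewise. The windows below hold such matches, in capitals. In the Sgk1 window at chr10:21993640-21993939 (plus strand) the capitals mark the full element, which begins at position -189 from the start, and upstream of it an E-box that overlaps a single arm by 2 bases. In the windows of Per1 (chr11:69098699-69098998, plus strand) and Fkbp5 (chr17:28486100-28486399, minus strand) they mark an E-box. In those of Tsc22d3 (chrX:140600473-140600772, minus strand) and Nfkbia (chr12:55492598-55492897, minus strand) they mark a single arm and a kappaB site.
Sgk1: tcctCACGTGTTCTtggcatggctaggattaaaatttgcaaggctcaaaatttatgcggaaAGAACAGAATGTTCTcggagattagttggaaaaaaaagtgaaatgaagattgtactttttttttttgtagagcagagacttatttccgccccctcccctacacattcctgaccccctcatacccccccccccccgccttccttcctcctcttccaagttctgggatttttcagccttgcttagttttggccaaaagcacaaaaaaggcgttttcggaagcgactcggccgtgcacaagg
Per1: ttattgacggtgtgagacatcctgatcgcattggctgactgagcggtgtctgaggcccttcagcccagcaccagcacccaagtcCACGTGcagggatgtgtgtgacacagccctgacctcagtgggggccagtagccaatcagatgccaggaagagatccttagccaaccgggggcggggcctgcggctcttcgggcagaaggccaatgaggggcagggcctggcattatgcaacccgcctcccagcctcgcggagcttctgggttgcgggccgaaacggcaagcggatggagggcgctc
Fkbp5: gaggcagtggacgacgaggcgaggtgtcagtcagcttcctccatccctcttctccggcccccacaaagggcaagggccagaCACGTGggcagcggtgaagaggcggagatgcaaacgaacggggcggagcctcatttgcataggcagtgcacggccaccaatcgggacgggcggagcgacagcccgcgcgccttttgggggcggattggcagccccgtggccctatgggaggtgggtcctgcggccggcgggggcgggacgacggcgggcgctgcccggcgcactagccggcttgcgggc
Tsc22d3: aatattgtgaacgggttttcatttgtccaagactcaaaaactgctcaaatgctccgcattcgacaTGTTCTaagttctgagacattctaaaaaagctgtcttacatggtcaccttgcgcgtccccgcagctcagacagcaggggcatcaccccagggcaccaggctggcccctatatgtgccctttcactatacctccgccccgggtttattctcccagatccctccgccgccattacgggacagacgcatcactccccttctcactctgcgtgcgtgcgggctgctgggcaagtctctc
Nfkbia: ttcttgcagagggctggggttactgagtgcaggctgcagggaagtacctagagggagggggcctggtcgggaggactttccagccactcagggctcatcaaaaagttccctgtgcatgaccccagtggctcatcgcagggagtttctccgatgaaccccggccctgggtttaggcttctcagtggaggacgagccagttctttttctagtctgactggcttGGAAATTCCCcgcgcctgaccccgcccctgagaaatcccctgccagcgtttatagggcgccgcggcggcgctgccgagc
The full element was found in 3 of 32851 mouse promoter windows (0.00913%), and the Sgk1 window above was 1 of those 3. The relaxed form stood in 0.475% of all windows and, among the members, in that same Sgk1 window alone, where it lies inside the full element and therefore adds no second match. The single arm, which the full element also contains, was found in 4 of the 17 member windows, against 19% of all windows. Those 4 belong to Tsc22d3 and to Sgk1, which alone supplies 6 of the 17 windows. CACGTG was found in 3 of 17, against 7.15%. The kappaB letters were found in 1 of the 17, against 1.63%. A match describes letters in these windows and not a bound site.

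Nr3c1, the gene targeted in corneaGRKO, was lower in every corneaGRKO library than in every GRflox library. Its log2 normalized expression was 10.61, 10.78, 10.83 and 10.78 in corneaGRKO replicates 1, 3, 4 and 5, against 11.07, 11.21, 11.28 and 11.34 in GRflox replicates 1, 3, 4 and 5. The lowest GRflox library stood 0.24 above the highest corneaGRKO library. Nr3c1 fell by 0.47 on the log2 scale (SE 0.064, 95% interval -0.62 to -0.33, limma adjusted p = 0.00767, n = 4 per group). On the deposited scale this is a level of 72.1% of GRflox, with an interval of 65.3% to 79.5%. Of the 13269 genes tested, 0.0377% had a lower difference. Values are summed over the whole gene, so deleted exons and the remaining transcript cannot be told apart, and in a bulk sample neither can fewer cells of a type and less RNA per cell. All 19 corneal epithelium markers were tested and 0 passed (limma; 2 higher and 3 lower at an unadjusted p under 0.05; 2 higher and 1 lower with the replicate number as a block). Called with the block were Krt15 (0.77, adjusted p = 0.0422) and Krt14 (0.48, 0.0345), both higher, and Epcam (-0.28, 0.028), lower. Of the 19, 13 were below 0 and 6 above. The summed level of all 19 had a log2 of 21.09 to 21.47 in corneaGRKO libraries and of 21.31 to 21.51 in GRflox libraries. Krt12, Krt5 and Aldh3a1 (corneaGRKO means of 19.9, 19.3 and 18.9) make up most of that sum, so it says little of the other markers. Of 17 stromal keratocyte markers, 4 fell, Kera, Col5a1, Col6a2 and Col6a3, by 0.23 to 0.33 on the log2 scale, and 0 rose (limma). Over all tested genes, 0.52% were called lower and 1.33% higher. At an unadjusted p under 0.05 (limma), 2 of the 17 were higher and 6 lower. The keratocyte list went both ways, with 9 below 0 and 8 above, and its summed level had a log2 of 18.64 to 18.88 in corneaGRKO libraries and of 18.81 to 18.87 in GRflox libraries. Thy1 had a difference of 0.34 and was called higher in the blocked fit (adjusted p = 0.032), but not without the block (0.103). The part of the stroma in the receptor's value was not tested.

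Tsc22d3 encodes GILZ, a leucine zipper protein that binds NF-kappaB and AP-1 and mediates anti-inflammatory effects of glucocorticoids. Its values were 10.71, 10.61, 11.00 and 10.65 in corneaGRKO replicates 1, 3, 4 and 5, against 11.23, 11.10, 11.20 and 11.33 in GRflox replicates 1, 3, 4 and 5. The groups did not overlap, and corneaGRKO replicate 4 lay closest to the GRflox libraries. Tsc22d3 fell by 0.47 (SE 0.0823, 95% interval -0.65 to -0.29, limma adjusted p = 0.0217, n = 4 per group), to 72.1% of the GRflox level on the deposited scale. The values of Tsc22d3 and Nr3c1 differed within a library by -0.01 ± 0.169 in corneaGRKO and by -0.01 ± 0.119 in GRflox (log2, SD, n = 4 each), so the ratio of the pair did not move beyond the spread of the libraries. Without corneaGRKO replicate 4 the fall was 0.56 on the log2 scale (adjusted p = 0.00117). The call was lost without corneaGRKO replicate 3 (adjusted p = 0.078), corneaGRKO replicate 5 (0.0611), GRflox replicate 1 (0.0731) or GRflox replicate 5 (0.0835), and the difference then lay between -0.47 and -0.43.

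Among the 10 members, 2 were called by limma, against 1.85% of all tested genes, and both were lower, against 0.52% called lower and 1.33% called higher. With the replicate number as a block, 4 members were called, all lower (Fkbp5 and Per1 besides these), against 1.48% of tested genes called lower and 5% called in either direction. At an unadjusted p under 0.05, 5 of the 10 members were lower, against 6.86% of all tested genes, and 1 was higher, against 9.69%. Without corneaGRKO replicate 3 or 5 or GRflox replicate 1 or 5, 1 member was called, which was Nr3c1. All corneaGRKO libraries lay below all GRflox libraries in 3 of the 10, against 4.61% of tested genes. They lay above them in 0 of the 10, against 5.89%. Nr3c1, the gene targeted by design, is included in each of these counts of lower members. The members were also chosen with earlier results of these data known, which limits the comparison with the shares over all genes. Among the 9 targets, Tsc22d3 alone was called by limma, joined by Fkbp5 and Per1 with the block. The lower targets at an unadjusted p under 0.05 were these and Nfkbia, and those without overlap were Tsc22d3 and Per1. The median difference was -0.13 over the members, -0.08 over the 9 targets without the receptor, and -0.01 over all tested genes. The targets thus covered a range from Tsc22d3 at -0.47 to Ddit4 at 0.13, with 6 of 9 below 0.

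**Figure D1:**
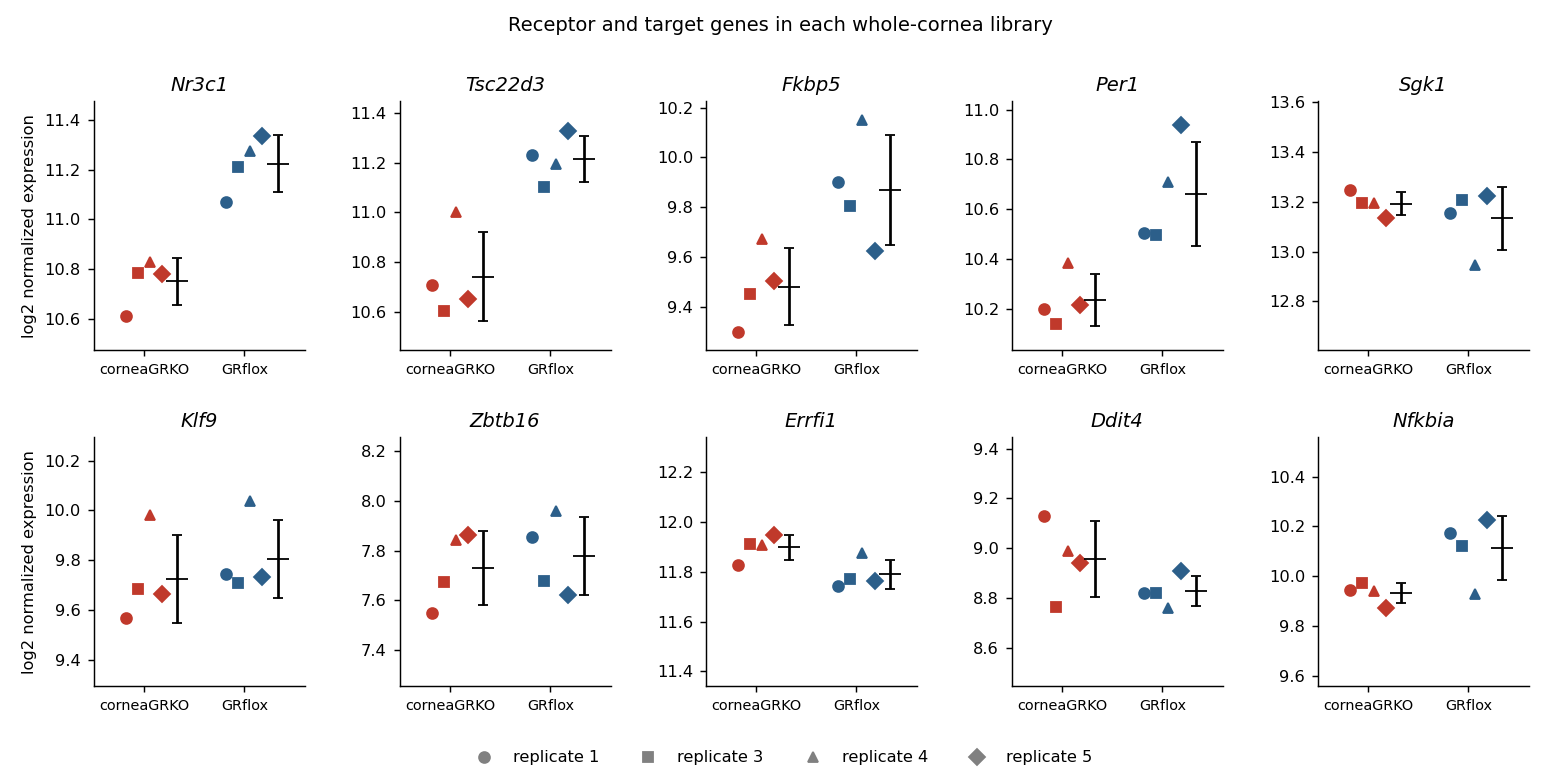
Log2 normalized expression of the 10 members in each library, with corneaGRKO (red) left of GRflox (blue), a symbol for each replicate number and black bars for the mean and SD of 4 libraries. Each vertical axis spans the same log2 range. The corneaGRKO libraries sit below all GRflox libraries for Nr3c1, Tsc22d3 and Per1 and overlap them for the other genes.

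**Figure D2:**
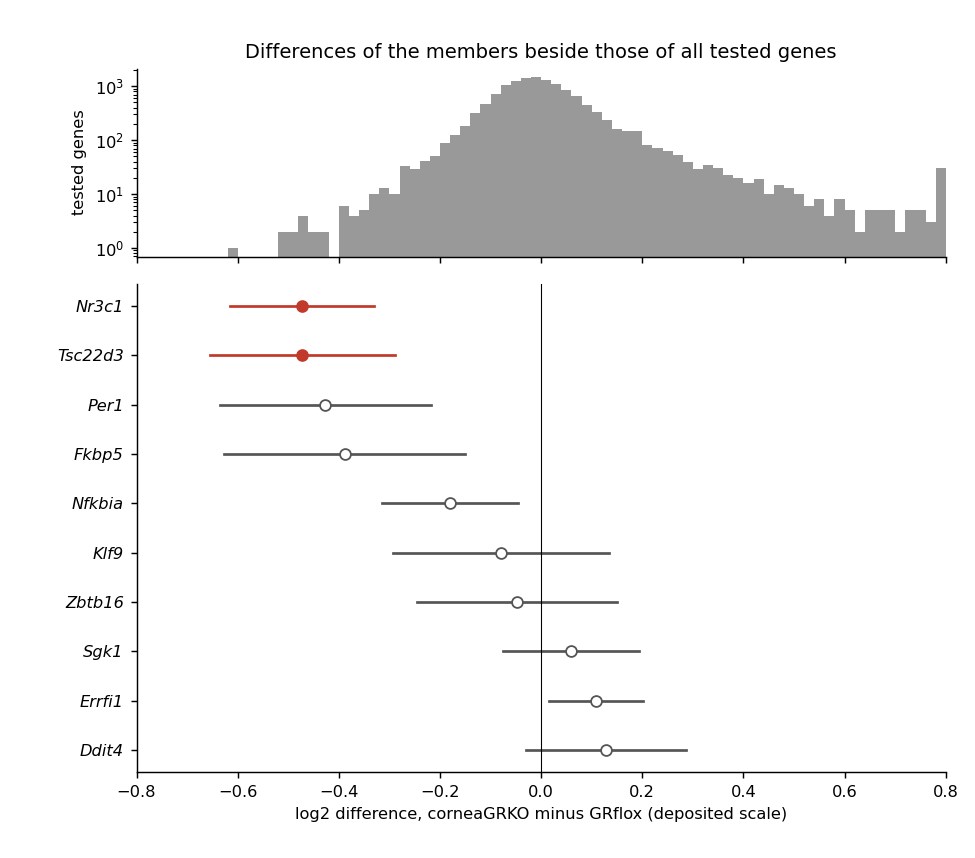
Upper panel: number of tested genes (log axis) by their log2 difference, corneaGRKO minus GRflox, with values past either end placed in the end bars. Lower panel: the difference of each member with its 95% interval from limma, filled red where the adjusted p is under 0.05. Nr3c1 and Tsc22d3, both at -0.47, lie at the low edge of the distribution, while Sgk1, Errfi1 and Ddit4 lie above 0.

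Per1 and Fkbp5 had differences near that of the receptor but missed the threshold over all genes. Per1 encodes a repressor of the circadian clock and is induced by glucocorticoids. Its values were 10.20, 10.14, 10.38 and 10.22 in corneaGRKO replicates 1, 3, 4 and 5, against 10.50, 10.50, 10.71 and 10.94 in GRflox replicates 1, 3, 4 and 5. The groups did not overlap, and the gap between them was 0.11. The difference was -0.43 (SE 0.0941, 95% interval -0.64 to -0.22, limma adjusted p = 0.0515), a level of 74.4% of GRflox. An exact permutation test of Per1 alone gave p = 0.0286, two-sided, the smallest p that 4 against 4 libraries can give. Any gene whose groups do not overlap gets this p, as Nr3c1 and Tsc22d3 did. It therefore adds nothing to the lack of overlap. Per1 passed over all genes without corneaGRKO replicate 4 (adjusted p = 0.0375) and with robust moderation (0.0499), and its adjusted p ran from 0.0154 to 0.163 over 18 alternatives.

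Fkbp5 encodes the HSP90 co-chaperone FKBP51, which lowers the affinity of the receptor for its hormone and closes a feedback loop. It had 9.30, 9.45, 9.67 and 9.50 in corneaGRKO replicates 1, 3, 4 and 5, against 9.90, 9.80, 10.15 and 9.62 in GRflox replicates 1, 3, 4 and 5. The groups overlapped through 2 libraries, corneaGRKO replicate 4 and GRflox replicate 5. The difference was -0.39 (SE 0.107, 95% interval -0.63 to -0.15, limma adjusted p = 0.105), a level of 76.4% of GRflox. The GRflox SD of 0.22 was the widest among the members' GRflox values. Of 14 other genes of the receptor's chaperone complex, all were tested and 0 passed (0 at an unadjusted p under 0.05, and 0 with the replicate number as a block), with differences from -0.14 to 0.05. Of 13 genes of hormone supply and related steroid receptors, 6 were tested and 0 passed (1 higher and 0 lower at an unadjusted p under 0.05, 0 with the block).

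Per1 was set beside the other clock genes, of which Arntl fell. Of 19 tested clock genes, 1 was called lower and 0 higher, against 0.52% and 1.33% of all tested genes. At an unadjusted p under 0.05 (limma), 3 of the 19 were higher and 4 lower. Arntl, which encodes the activator BMAL1, had 10.50, 10.40, 10.18 and 10.37 in corneaGRKO replicates 1, 3, 4 and 5, against 11.06, 10.79, 10.89 and 10.74 in GRflox replicates 1, 3, 4 and 5. It fell by 0.51 on the log2 scale (SE 0.0787, limma adjusted p = 0.0116). The groups of Arntl did not overlap, and it passed under all 18 alternatives. Per2 and Per3, paralogs of Per1 that also repress BMAL1, had differences of 0.32 (SE 0.0863, adjusted p = 0.0959) and 0.16 (SE 0.0682, adjusted p = 0.277) in the opposite direction. Per2 had 9.87, 9.79, 9.93 and 9.72 in corneaGRKO replicates 1, 3, 4 and 5, against 9.29, 9.42, 9.59 and 9.72 in GRflox replicates 1, 3, 4 and 5. The value of Per1 less that of Per2 within a library, a log2 ratio that gene length does not move between groups, was 0.33, 0.35, 0.45 and 0.49 in corneaGRKO replicates 1, 3, 4 and 5, against 1.21, 1.07, 1.11 and 1.21 in GRflox replicates 1, 3, 4 and 5. It averaged 0.41 ± 0.0779 in corneaGRKO and 1.15 ± 0.0705 in GRflox (SD, n = 4 each). The pair was chosen after the values were seen. Per2 had the highest difference of the 19 clock genes and Per1 the lowest except for Arntl. A wide gap between the groups in their ratio was therefore built in by the choice. The spread of this ratio within each group was smaller than that of Per2 alone, whose SD was 0.0926 in corneaGRKO and 0.189 in GRflox. The hour of tissue collection is not given in the labels, and its part in these values was not tested.

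**Figure D3:**
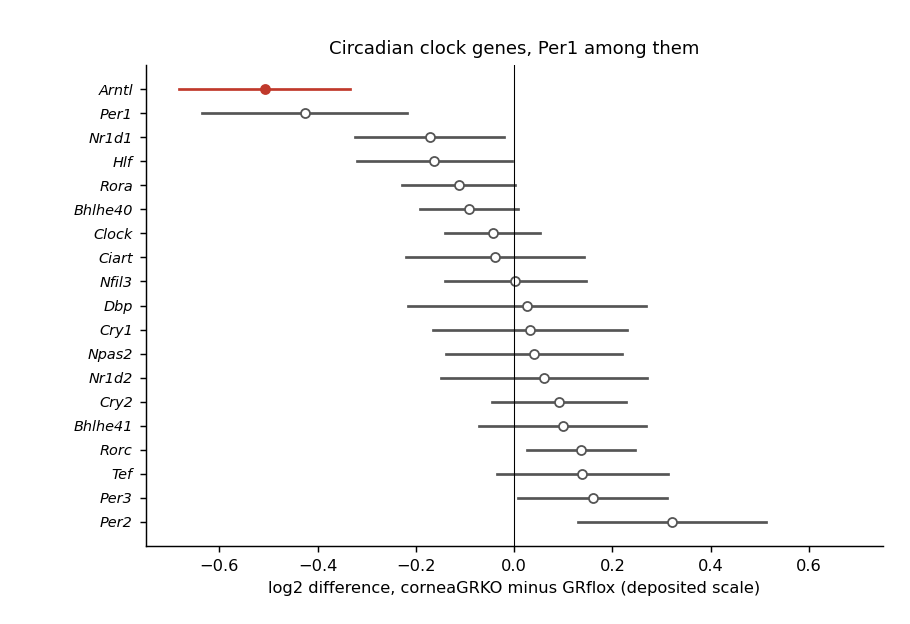
Log2 difference, corneaGRKO minus GRflox, of the 19 tested clock genes with 95% intervals from limma (filled red: adjusted p under 0.05). Arntl (-0.51) and Per1 (-0.43) stand at the low end and Per2 (0.32) at the high end.

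Nfkbia encodes IkappaB-alpha, which holds NF-kappaB in the cytoplasm and is induced both by glucocorticoids and by NF-kappaB itself. Its values were 9.94, 9.97, 9.94 and 9.87 in corneaGRKO replicates 1, 3, 4 and 5, against 10.17, 10.12, 9.93 and 10.23 in GRflox replicates 1, 3, 4 and 5. The groups overlapped only through GRflox replicate 4, which was lower than the other GRflox libraries. The difference was -0.18 (SE 0.0603, 95% interval -0.31 to -0.05, limma adjusted p = 0.166), and it passed without GRflox replicate 4 (-0.24, adjusted p = 0.0253). Of 17 tested NF-kappaB pathway genes including Nfkbia, 1 rose and 0 fell, against 1.33% and 0.52% of all tested genes. At an unadjusted p under 0.05 (limma), 3 of the 17 were higher and 1 lower. The gene that rose was Traf1, an adaptor of TNF receptors and an NF-kappaB target. Traf1 rose by 0.20 (SE 0.0428, limma adjusted p = 0.0476). Its call was lost in 9 of 17 alternatives, with 6 of the 8 single libraries left out, with quantile normalization (adjusted p = 0.062), the pseudocount (0.0518) or no mean-variance trend (0.0667). Without corneaGRKO replicates 3 or 5 its adjusted p was 0.142 or 0.062, and without GRflox replicates 1, 3, 4 or 5 it was 0.123, 0.121, 0.0686 or 0.145.

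Genes known to be repressed by glucocorticoids were read beside the targets. Of 23 listed, 9 were tested, 2 rose and 0 fell, with a median difference of 0.15. Over all tested genes 1.33% were called higher. At an unadjusted p under 0.05 (limma), 3 of the 9 were higher and 1 lower. With the replicate number as a block, 3 were called higher and 0 lower. The lower gene was Tnf (-0.14, limma adjusted p = 0.199), while the other 8 were above 0. Icam1, the leukocyte adhesion molecule, had 8.95, 9.10, 9.38 and 8.88 in corneaGRKO replicates 1, 3, 4 and 5, against 8.61, 8.54, 8.60 and 8.56 in GRflox replicates 1, 3, 4 and 5. It rose by 0.50 (SE 0.0914, limma adjusted p = 0.0274), and all corneaGRKO libraries lay above all GRflox libraries. The matrix protease gene Mmp3 rose by 0.83 (SE 0.129, adjusted p = 0.0121), to 12.13 ± 0.265 in corneaGRKO, against 11.30 ± 0.194 in GRflox (SD, n = 4 each). The call of Icam1 was lost without corneaGRKO replicate 3 (adjusted p = 0.0966), GRflox replicate 1 (0.0742), GRflox replicate 3 (0.0779) or GRflox replicate 5 (0.0969), and that of Mmp3 without GRflox replicate 5 (0.0544). Macrophage and leukocyte markers moved with them: 4 of 10 tested rose. The log2 summed level of all 14 such markers with an entry, without the filter, was 13.50 to 13.81 in corneaGRKO and 13.43 to 13.65 in GRflox. Markers of conjunctiva and goblet cells, called conjunctival markers here, moved with them as well: 3 of 6 tested rose and 0 fell. Those 3 were the keratin genes Krt8 (0.56, limma adjusted p = 0.00398), Krt19 (0.79, 0.0159) and Krt13 (0.54, 0.0483). All 6 were above 0, but Agr2, the tested marker outside the keratin genes, had a difference of only 0.02 (adjusted p = 0.784). Tff3, also listed, was 0 in all libraries. The log2 summed level of all 10 conjunctival markers was 15.83, 15.95, 16.59 and 15.86 in corneaGRKO replicates 1, 3, 4 and 5, against 15.31, 15.65, 15.29 and 15.29 in GRflox replicates 1, 3, 4 and 5, so that the groups did not overlap. Of 5 tested pigment cell markers 1 rose, Tyrp1 (0.56, limma adjusted p = 0.0451). The summed level of all 9 listed had a log2 of 11.27 to 11.49 in corneaGRKO and of 11.16 to 11.23 in GRflox. Of 10 tested blood vessel markers 0 passed (limma; 6 higher and 0 lower at an unadjusted p under 0.05, 4 higher with the block), with 9 above 0. The log2 summed level of all 11 listed vessel markers was 10.87 to 11.06 in corneaGRKO and 10.85 to 10.99 in GRflox. The part of these cells in the values of Icam1 and Mmp3 was not tested.

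Sgk1, which has the full response element shown above in 1 of its 6 promoter windows, did not differ by the test. Its value is summed over the whole gene, so transcripts from different start sites cannot be told apart. SGK1 is a kinase that raises sodium transport by protecting the epithelial sodium channel from degradation. Sgk1 had 13.25, 13.19, 13.19 and 13.14 in corneaGRKO replicates 1, 3, 4 and 5, against 13.16, 13.21, 12.95 and 13.22 in GRflox replicates 1, 3, 4 and 5. The groups overlapped, and GRflox replicate 4 was the lowest library. The difference was 0.06 (SE 0.0605, 95% interval -0.07 to 0.19, limma adjusted p = 0.639), a level of 104.2% of GRflox with an interval of 95% to 114%. A fall as large as that of Nr3c1 or Tsc22d3 lies outside that interval. The sign turned without GRflox replicate 4 (-0.0028) and with library weights (-0.0044). Of 12 tested genes of the sodium channel and of SGK1 and its substrates, 1 fell and 0 rose. Over all tested genes, 0.52% were called lower and 1.33% higher. At an unadjusted p under 0.05 (limma), 2 of the 12 were higher and 3 lower. The gene that fell was Ndrg1, whose product is phosphorylated by SGK1 and whose transcript is known as a hypoxia-induced one. Ndrg1 had 11.96, 11.86, 11.76 and 11.84 in corneaGRKO replicates 1, 3, 4 and 5, against 12.08, 12.08, 12.12 and 12.14 in GRflox replicates 1, 3, 4 and 5. It fell by 0.25 (SE 0.044, adjusted p = 0.0221), a call lost without corneaGRKO replicate 3 (0.0829) or 5 (0.0632) or without GRflox replicate 1 (0.0558), 3 (0.0553) or 5 (0.0909).

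Klf9 and Zbtb16, the 2 transcription factor genes among the targets, did not pass either. Klf9 encodes a Krüppel-like factor and had 9.57, 9.69, 9.98 and 9.67 in corneaGRKO replicates 1, 3, 4 and 5, against 9.74, 9.71, 10.04 and 9.73 in GRflox replicates 1, 3, 4 and 5. In both groups replicate 4 stood above the other libraries, and 3 of the 4 corneaGRKO libraries lay below the lowest GRflox library. The difference was -0.08 (SE 0.0959, 95% interval -0.29 to 0.13, limma adjusted p = 0.698). It was -0.17 without corneaGRKO replicate 4, -0.03 without corneaGRKO replicate 1 and -0.0019 without GRflox replicate 4, and passed in none of the 18 alternatives. Zbtb16 encodes the zinc finger repressor PLZF. It had 7.55, 7.67, 7.84 and 7.86 in corneaGRKO replicates 1, 3, 4 and 5, against 7.86, 7.68, 7.96 and 7.62 in GRflox replicates 1, 3, 4 and 5. The groups overlapped over most of their range, with a difference of -0.05 (SE 0.0891, 95% interval -0.25 to 0.15, adjusted p = 0.813). Its sign turned with library weights (0.028), without corneaGRKO replicate 1 (0.014) and without GRflox replicate 4 (0.014).

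Errfi1 and Ddit4 were on the higher side. Errfi1 encodes a feedback inhibitor of the EGF receptor, a main growth signal of the corneal epithelium. It had 11.83, 11.91, 11.91 and 11.95 in corneaGRKO replicates 1, 3, 4 and 5, against 11.74, 11.77, 11.88 and 11.76 in GRflox replicates 1, 3, 4 and 5. In 3 of 4 corneaGRKO libraries it was above the highest GRflox library, with a difference of 0.11 (SE 0.0416, 95% interval 0.02 to 0.20, limma adjusted p = 0.223). Of 16 tested genes of the EGF receptor and its feedback, Errfi1 included, 0 passed (limma; 4 higher and 1 lower at an unadjusted p under 0.05, 0 with the replicate number as a block).

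Ddit4 encodes an inhibitor of mTORC1 that is induced by glucocorticoids, hypoxia and amino acid or endoplasmic reticulum stress. Its values were 9.13, 8.76, 8.99 and 8.94 in corneaGRKO replicates 1, 3, 4 and 5, against 8.82, 8.82, 8.76 and 8.91 in GRflox replicates 1, 3, 4 and 5. Here too 3 of 4 corneaGRKO libraries exceeded the highest GRflox library, and replicate 3 did not. The difference was 0.13 (SE 0.0708, 95% interval -0.03 to 0.29, adjusted p = 0.394), and without corneaGRKO replicates 1 and 4 together it was 0.02. Of 18 tested mTORC1, ATF4 and hypoxia genes, Ddit4 included, 1 rose and 0 fell. Over all tested genes, 1.33% were called higher and 0.52% lower. At an unadjusted p under 0.05 (limma), 4 of the 18 were higher and 3 lower. The gene that rose was Ddit4l, the paralog of Ddit4, whose product also restrains mTORC1. Ddit4l had 5.95, 5.83, 5.89 and 5.81 in corneaGRKO replicates 1, 3, 4 and 5, against 5.48, 5.52, 5.49 and 5.44 in GRflox replicates 1, 3, 4 and 5. The groups were well apart, with a rise of 0.39 (SE 0.0373, limma adjusted p = 0.00137) that passed in all 17 alternatives in which it was tested. Its level lay close to the filter. Among 25 tested relatives of the members, Ddit4l was the 1 that rose, and 0 fell. At an unadjusted p under 0.05 (limma), 6 of these relatives were higher and 0 lower.

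A broader list of genes known to be induced by glucocorticoids leaned to the higher side, with no gene called. Of 50 listed symbols 48 were in the table and 42 were tested, none of them a member. By limma 0 passed in either direction (9 higher and 3 lower at an unadjusted p under 0.05; 3 higher and 1 lower with the replicate number as a block). Differences ran from -0.25 to 0.32, with 15 below 0 and 27 above, and the median was 0.04, against -0.01 over all tested genes. Of all 13269 tested genes, 7256 were below 0 and 6013 above. At an unadjusted p under 0.05 (limma), 9.69% of them were higher and 6.86% lower. The lowest was Scnn1a, a subunit of the epithelial sodium channel (adjusted p = 0.25), and the highest was Il1r2, the decoy receptor of interleukin 1 (adjusted p = 0.128). The part of macrophages and leukocytes, whose markers are given above, in the differences of this list was not tested.

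**Figure D4:**
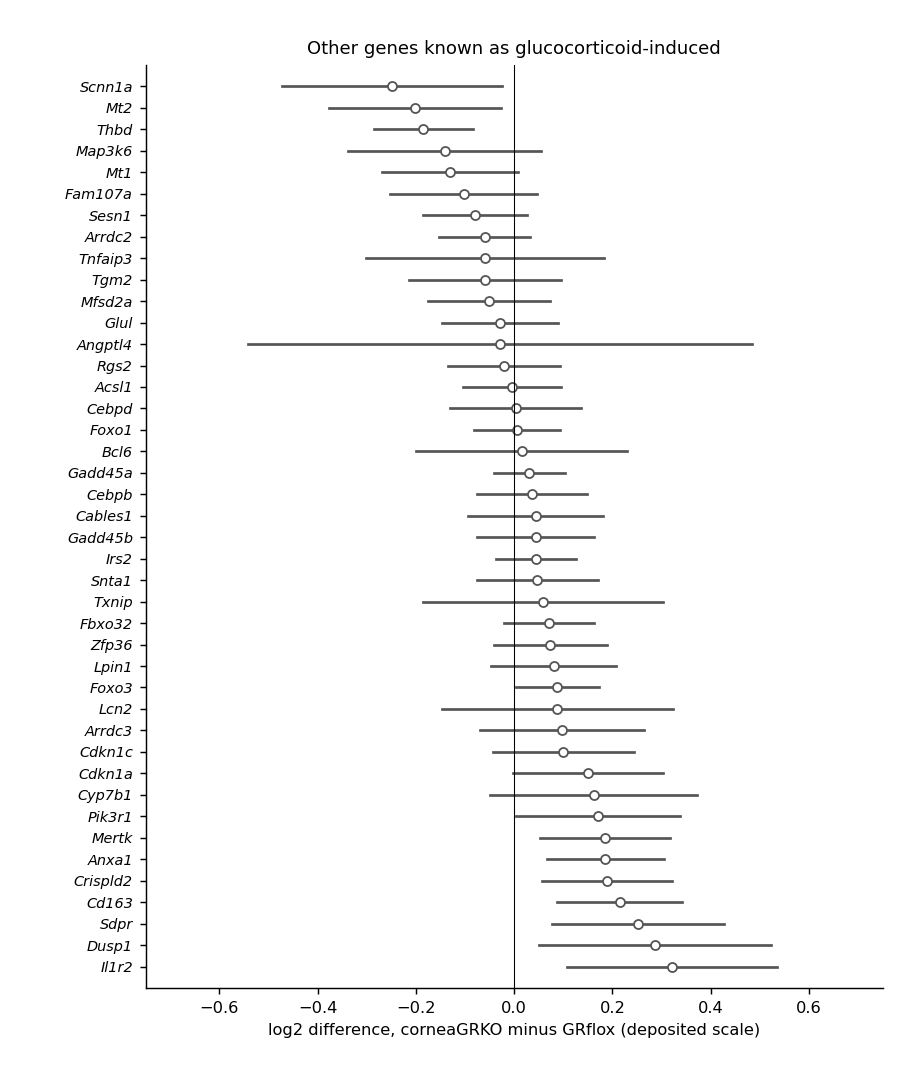
Log2 difference, corneaGRKO minus GRflox, of the 42 tested genes known as glucocorticoid-induced that are not members, with 95% intervals from limma. Open circles mark genes with an adjusted p of 0.05 or more, which here is all 42, and the values run from -0.25 to 0.32.

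Per1 was also the gene nearest to Tsc22d3 in its pattern over the libraries. Likeness was measured as the root-mean-square difference between profiles over the 8 libraries, each gene taken less its own mean, which favours genes with a similar difference between the groups. The 5 tested genes nearest to Nr3c1 were Cyp2b19, Adrb3, Stfa1, Per1 and Tacr3, at distances of 0.0872 to 0.106, against a median of 0.26 over all candidates. The 5 nearest to Tsc22d3 were Per1, Stfa1, Nr3c1, Plod1 and Tmigd1, at 0.104 to 0.147, against a median of 0.271. Cyp2b19, a cytochrome P450 gene known from mouse epidermis, fell by 0.49 (SE 0.0653, limma adjusted p = 0.00738), Adrb3, a beta-adrenergic receptor gene, by 0.46 (adjusted p = 0.0087), Stfa1 by 0.51 (0.000482) and Tacr3 by 0.34 (0.0442). Plod1, which encodes a collagen lysyl hydroxylase, fell by 0.36 (0.00767), and Tmigd1 by 0.31 (0.013). Per1 and Stfa1, a stefin protease inhibitor, were on both lists. Per1 passed the threshold in 4 of 18 alternatives, Tacr3, a tachykinin receptor, in 10 of 18, Tmigd1 in 16 of 18, and Stfa1 and Cyp2b19 in 18 of 18. The values of Stfa1 and Cyp2b19 are uncertain, because each has close relatives with which reads may be shared.

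Which library was extreme differed between members. CorneaGRKO replicate 4 was the highest corneaGRKO library for 5 of the 10 members and the lowest for 0. CorneaGRKO replicate 1 was the lowest corneaGRKO library for 5 members and the highest for 2. GRflox replicate 5 was the highest GRflox library for 6 members and the lowest for 2, and GRflox replicate 4 was the highest for 4 and the lowest for 3. CorneaGRKO replicate 4 also had the highest summed level of the conjunctival markers given above and of the photoreceptor markers. The log2 summed level of all 15 photoreceptor markers, without a filter, was 9.32, 8.93, 10.5 and 8.86 in corneaGRKO replicates 1, 3, 4 and 5, against 8.78, 8.83, 8.78 and 8.81 in GRflox replicates 1, 3, 4 and 5. The part of such tissue in the members' values was not tested. Without that library 3 members were called (Nr3c1, Tsc22d3 and Per1), and without corneaGRKO replicates 1 and 4 together 2 were (Nr3c1 and Tsc22d3).

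**Figure D5:**
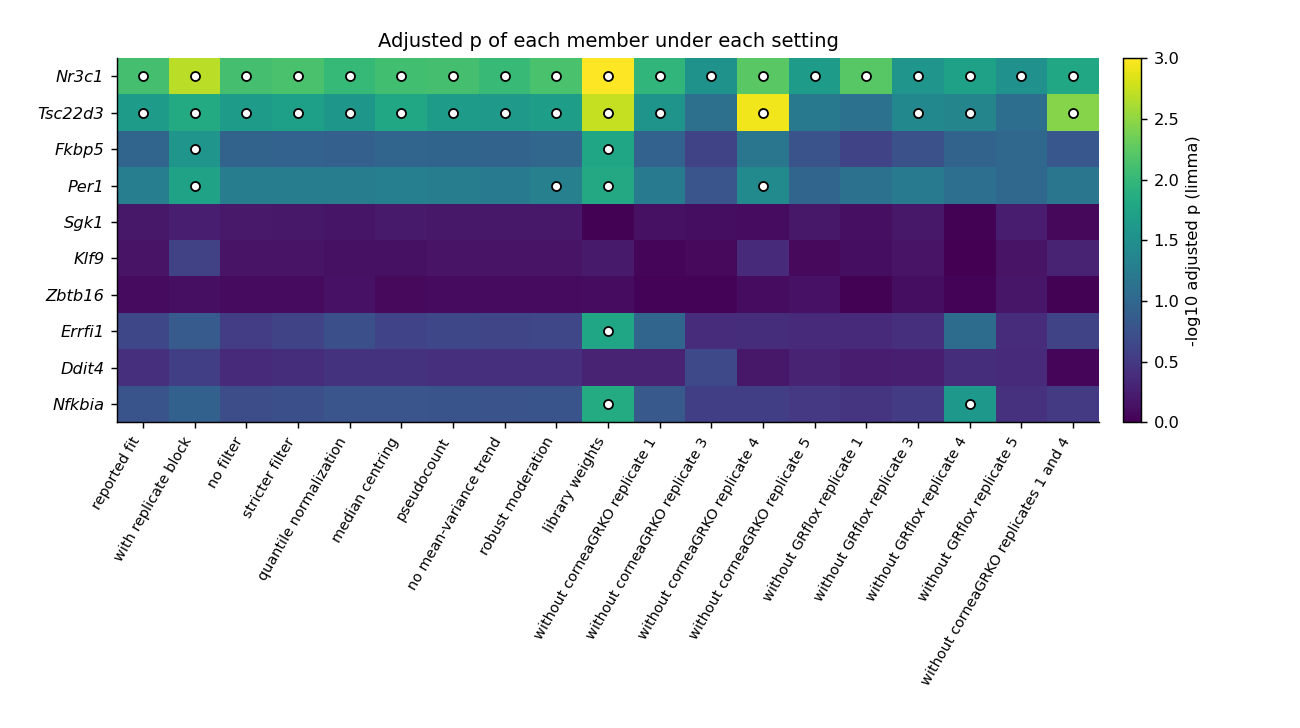
Adjusted p of each member (rows) in the reported fit and under 18 alternatives (columns), as -log10 on the colour scale, with a white circle where it is under 0.05. Nr3c1 has a circle in every column, Tsc22d3 in all but 4 of the alternatives, and Sgk1, Klf9, Zbtb16 and Ddit4 in none.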

How the data were processed

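RNA-seq of whole cornea gave 8 libraries, 4 corneaGRKO and 4 GRflox, grouped by their titles. The table holds log2 normalized values that the authors deposited. Bowtie2, HTSeq and DESeq2 are named in the submitters' processing notes, without versions. These notes give mm9 as the build and the labels' protocols mm10; promoter windows are on the RefSeq build stated beside them. How the values were transformed is not given in the sources used here. Across GRflox libraries the median SD per gene was 0.0144 for means of 2 to 3, against 0.0676 for means of 10 to 12, and fold changes at low levels may therefore be understated. Per the labels, samples had over 40000000 reads; the depth of each library is unknown, so no counting error is given. The table had 0 further value columns.

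The 13269 genes whose mean over the libraries reached 5 entered a limma fit (version 3.58.1, R 4.3.3) on group alone, with a trend of variance on mean, two-sided tests and Benjamini-Hochberg adjustment over all of them. The test was checked on simulated data with independent noise for each gene and library. That check held no effects shared by the genes of a library and does not cover them. Replicates are pools of corneas, and p-values reflect how those pools vary. No library was a duplicate of another (median absolute difference of the closest 2: 0.0427). Members and lists were chosen with earlier results of these data known. Further genes are named where they are in a list and passed, or are among the 5 nearest in profile to Nr3c1 or Tsc22d3, leaving out unnamed gene models, Y-linked genes and Xist. Per2, Per3, Scnn1a and Il1r2, and the ratio of Per1 to Per2, were chosen after their values were seen. The 18 alternatives were a replicate block, a filter at 7, no filter, centring on the median, quantile normalization, 16 added to the values after undoing the log2, limma without the trend, with robust moderation and with library weights, each library left out, and corneaGRKO replicates 1 and 4 left out together.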

Additional observations from a re-analysis of the deposited data

Results flagged for a closer look

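In 20 sets of 4 libraries (10 members in each group), 1 library stood far from the other 3 by Dixon's test, about what chance gives at 1 in 20. This was Klf9 in GRflox replicate 4, at 10.04 on the log2 scale, where the other GRflox libraries had 9.71 to 9.74. Without that library the Klf9 difference was -0.0019 (limma adjusted p = 0.99).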

How the results depend on the processing

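Nr3c1 was past the threshold in all 18 alternatives, with differences from -0.52 to -0.43, and Tsc22d3 in 14 of 18, with differences from -0.58 to -0.43. Leaving out 1 library at a time gave 68 to 574 genes past the threshold, against 245, and 1 to 3 members, against 2. With 1 library left out, Sgk1 ran from -0.0028 to 0.0899 and Zbtb16 from -0.099 to 0.014 (0.014 without corneaGRKO replicate 1 and without GRflox replicate 4). With library weights 1980 genes and 6 members passed, and the differences of Sgk1 (-0.0044) and Zbtb16 (0.028) changed sign. With the replicate block 663 genes and 4 members passed, Fkbp5 (adjusted p = 0.0275) and Per1 (0.0188) among them. The replicate numbers were not taken as pairs, since the correlation of deviations between libraries of the same number was 0.514, -0.284, 0.259 and 0.0611 for numbers 1, 3, 4 and 5, and not every corneaGRKO library was most like its own number. The cause of these changes was not tested. No alternative scaling moved the median of all genes by more than 0.1. The unknown depth of each library limits what can be said of low genes.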
